A study of Mus musculus with 20 samples.

Results

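The levels of 10 genes of the Wnt pathway were compared between striatum and hippocampus. These were 10 of the 27179 genes in the deposited expression table, taken by Entrez identifier: the ligands Wnt2b, Wnt3a, Wnt5a, Wnt7a, Wnt7b and Wnt8b, the R-spondins Rspo1 and Rspo2, and the response genes Lef1 and Axin2. RNA sequencing had been done on 20 libraries from C57BL/6 mice, either wild type or with Helios, a zinc finger protein made from Ikzf2, knocked out in full. Each of the 4 groups (hippocampus or striatum, labelled wild type or labelled knockout) held 5 libraries, with 15610426 to 36311992 reads recovered per library. The allele, age and number of animals are not given in the sources used here. The p-values therefore measure the spread between these libraries, which may be technical in part. The libraries were not alike in Xist, which was below 1 RPKM in both tissues for 3 of 10 replicate numbers.

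Wnt proteins are secreted, lipid-modified ligands that bind Frizzled receptors. In the canonical branch of the pathway they keep beta-catenin from being degraded, and beta-catenin then joins TCF and LEF factors at target genes. R-spondins act with LGR receptors against the ubiquitin ligases Znrf3 and Rnf43, which otherwise remove Frizzled from the cell surface. In the mouse embryo the cortical hem, at the edge of the cortex, is a source of Wnt ligands including Wnt2b, Wnt3a, Wnt5a and Wnt8b, and loss of Wnt3a or of Lef1 disrupts the hippocampus, the dentate gyrus above all in Lef1 mutants.

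Levels are given as RPKM, reads scaled by gene length and by the depth of the library, which can be compared between genes because they are scaled to length. Decimal marks missing from values at or above 1 were restored before use. In every list of values below, libraries are in the order of their replicate numbers, 1, 2, 3, 4 and 6 for hippocampus labelled wild type, 5, 7, 8, 9 and 10 for hippocampus labelled knockout, 1 to 5 for striatum labelled wild type and 6 to 10 for striatum labelled knockout. Differences are means of log2(RPKM + 1) compared with limma over all tested genes, given with their standard error (SE), and called means an adjusted p (Benjamini-Hochberg) under 0.05. The added 1 makes these differences smaller than the true change for genes of low level. In bulk tissue, fewer cells of a type and less RNA per cell cannot be told apart.

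Ikzf2, the targeted gene, checked the labels. In striatum it was at 3.66, 2.81, 2.36, 2.09 and 2.31 RPKM in the libraries labelled wild type and at 1.11, 0.842, 1.09, 0.849 and 0.760 in those labelled knockout, with no overlap. In hippocampus it was at 1.32, 1.58, 1.33, 1.61 and 0.782 RPKM against 1.43, 0.785, 0.353, 0.617 and 0.550, so replicate 6 labelled wild type and replicate 5 labelled knockout each lay with the opposite group. Those numbers also carry the opposite genotype label in striatum, and hippocampal comparisons of genotype are given below with and without them. The hippocampal library labelled knockout replicate 8 stood apart by gene length: its genes under 1 kb had a median log2 difference of 0.87 from the tissue median and its genes over 5 kb one of -0.81. Summed RPKM of 7 striatal markers was 224 to 429 in striatal libraries and 10.4 to 16.7 in hippocampal ones. The 5 hippocampal markers summed to 316 to 491 in hippocampus and to 74.7 to 371 in striatum, so striatal libraries were not free of them. The largest of them in striatum labelled wild type were Neurod6 and Tbr1, at means of 112 and 42.6 RPKM. Prox1, Zbtb20 and Emx1 had means of 4.70, 6.16 and 6.08 RPKM there. In hippocampus with that label Tbr1 had a mean of 40.3 RPKM, so it did not separate the tissues. Some values of Neurod6, Emx1 and Prox1 in these sums have a decimal mark that could not be placed with certainty.

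Of the 10 genes, 8 were higher in hippocampus and 1 was higher in striatum. Tests were possible for 9, and in the libraries labelled wild type 8 were called higher in hippocampus and 1, Wnt7a, lower. Among all 14786 genes tested there, 44.3% were called, 23.3% higher and 20.9% lower. The libraries labelled knockout gave the same directions, 8 higher and 1 lower of 9, against 28.9% called of all 14368 genes tested, 15.7% higher and 13.2% lower. The median difference of the 9 genes was 1.66 on the log2 scale in the labelled wild type and 1.59 in the labelled knockout, beside 0.01 and -7.4e-05 over all genes tested. Wnt3a, Wnt8b and Rspo1 passed the filter on low values (0.5 RPKM or more in 5 or more of the libraries compared) only through their hippocampal values, so they had to differ. Their calls add nothing to the counts above, and they are part of the medians. They are also in the counts of separate ranges and of unadjusted p that follow, and add nothing to those. Ranges of the tissues did not overlap for 9 of the 10 genes with the wild type label and 8 with the knockout label, beside 30.9% and 28.1% of all genes tested. Unadjusted p was below 0.05 for the 9 genes tested in both, beside 51.9% and 39% of all genes. Without hippocampal replicate 8 the number called with the knockout label was 6254 in place of 4153, and with the replicate number as a block it was 2368.

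Markers of several other cell types were also higher in hippocampus. Of 8 Cajal-Retzius markers, 7 were called higher in hippocampus labelled wild type (8 tested, median 1.89), with sums of 143 to 208 RPKM in hippocampus and 33.3 to 118 in striatum. Of 8 meningeal fibroblast markers, 7 were tested; 4 were called higher with the wild type label (median 1.44) and 7 with the knockout label (median 2.29). Of 8 endothelial markers, 7 and 5 were called higher (medians 0.36 and 0.42). Choroid plexus markers summed to 38.3 to 384.2 RPKM in hippocampus and 2.29 to 19.2 in striatum, with 2 of 4 tested called higher with the wild type label and 3 of 5 with the knockout label. The hippocampal sums of replicates 1, 4 and 8 include Ttr values whose decimal mark was unsure. In striatum alone, the fit between genotype labels tested 5 of the 8 Cajal-Retzius, 2 of the 8 meningeal fibroblast, 3 of the 8 choroid plexus and 8 of the 8 endothelial markers. Markers under the filter in striatum passed it between tissues through hippocampus, so they had to be higher there and their calls add nothing to these counts. None of these markers was at 0 in every library of a group, and their part in the differences of the Wnt genes was not tested. Wnt7b was left out of the fits because its decimal mark was unsure in 3 libraries.

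With a pseudocount of 0.1 or with voom the differences of the lowest genes were larger, up to 4.15 for Rspo1, 2.46 for Lef1 and 3.62 for Rspo2 with the wild type label; for Wnt3a and Wnt8b, near 0 reads in striatum, the fitted size depends on what is added to the counts.

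**Figure D1:**
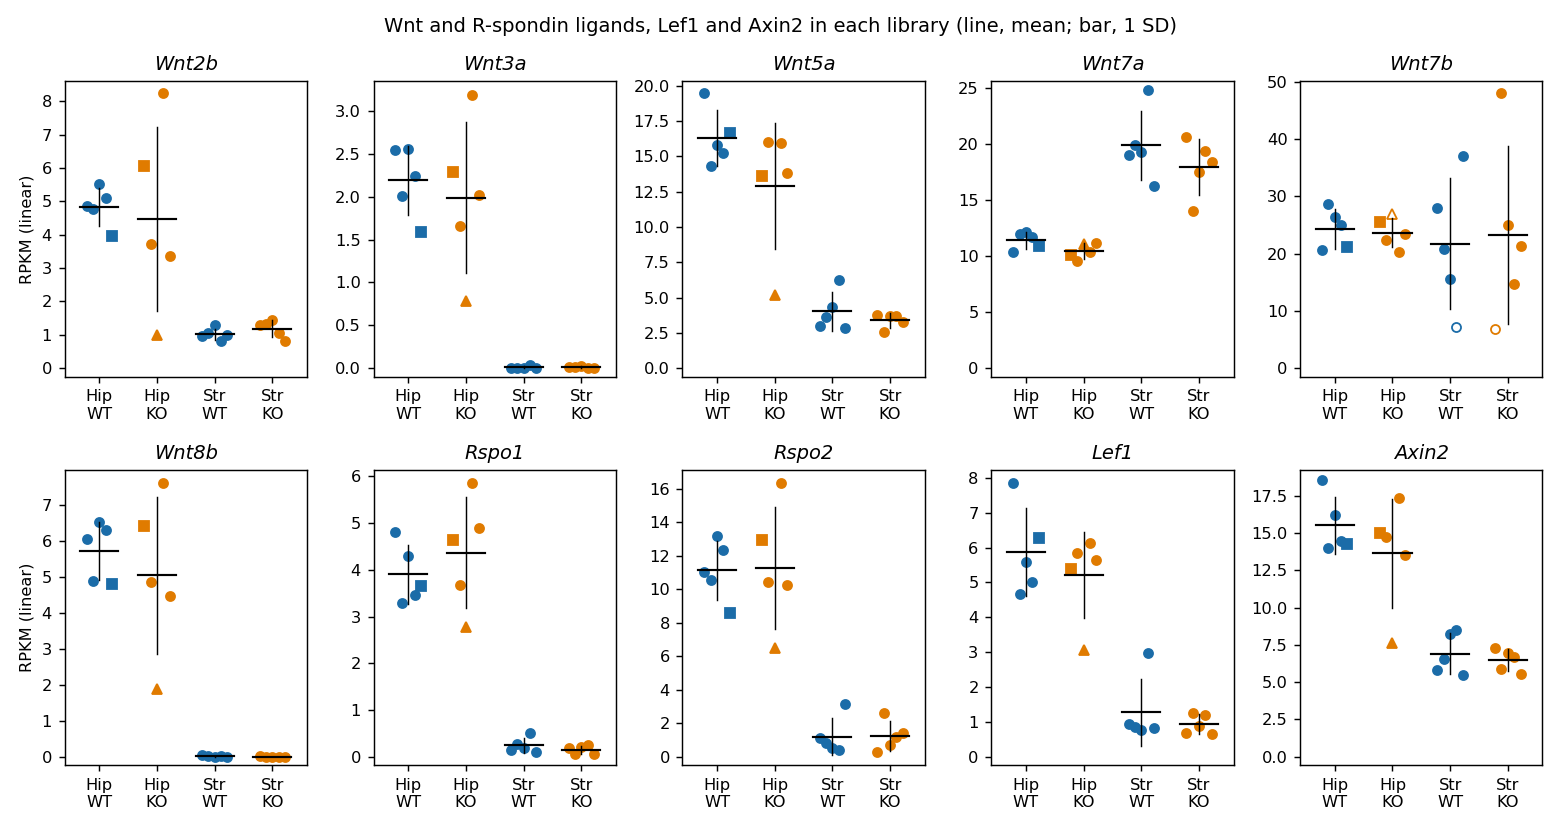
RPKM on linear axes for the 10 genes in each library of hippocampus (Hip) and striatum (Str), labelled wild type (WT, blue) or knockout (KO, orange), with the group mean (line) and 1 SD (bar, cut at 0). Squares are the hippocampal libraries of numbers 5 and 6, the triangle is hippocampus labelled knockout replicate 8, and open symbols are Wnt7b values with an unsure mark. Wnt3a and Wnt8b sat at 0 to 4 reads in striatum, whereas Wnt7a was the gene with all striatal values above all hippocampal ones.

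Wnt3a and Wnt8b were the ligands nearest to absence in striatum. Wnt8b (chromosome 19, 44493472 to 44514273, GRCm38.p6) was at 6.04, 4.89, 6.52, 6.30 and 4.79 RPKM in hippocampus labelled wild type, on 435 to 608 reads, and at 6.4003, 4.85, 1.87, 7.59 and 4.45 in hippocampus labelled knockout. In striatum it had 4, 1, 0, 1 and 0 reads in the libraries labelled wild type and 1, 0, 0, 0 and 0 in those labelled knockout. Every hippocampal library thus lay above every striatal one, and 6 of the 10 striatal libraries had no read of it. Hippocampus exceeded striatum by 2.72 (SE 0.085; adjusted p = 5.28e-09) on the log2 scale in the labelled wild type and by 2.50 (SE 0.24; adjusted p = 1.73e-05) in the labelled knockout.

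Wnt3a (chromosome 11, 59248036 to 59290751) was lower than Wnt8b within hippocampus. It was at 2.54, 2.01, 2.56, 2.24 and 1.59 RPKM in the libraries labelled wild type and at 2.29, 1.66, 0.777, 3.19 and 2.02 in those labelled knockout. Striatum held 0, 0, 0, 3 and 0 reads and 1, 1, 2, 0 and 0 reads. The tissues did not overlap in either genotype label, and the hippocampal library of replicate 8 was again the lowest of the 10 and replicate 9 the highest. The difference was 1.65 (SE 0.088; adjusted p = 1.12e-07) and 1.51 (SE 0.18; adjusted p = 9.92e-05).

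The start regions of these ligands are shown because they share a hippocampal pattern and differ in composition. The 250 bases before the RefSeq start of Wnt8b (chr19:44493222-44493471, plus strand, GRCm38.p6) hold 48.4% G and C, and those of Wnt3a (chr11:59290752-59291001, minus strand) hold 87.6%, against a median of 52.4% over all 32851 start sites in the table. No base is in capitals, since capitals mark the TCF and LEF motif described with Lef1 and neither holds it.
Wnt8b: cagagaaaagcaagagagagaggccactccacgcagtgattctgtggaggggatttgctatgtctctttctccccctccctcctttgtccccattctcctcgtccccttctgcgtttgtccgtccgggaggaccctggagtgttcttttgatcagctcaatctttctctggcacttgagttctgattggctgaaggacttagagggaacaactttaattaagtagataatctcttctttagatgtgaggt
Wnt3a: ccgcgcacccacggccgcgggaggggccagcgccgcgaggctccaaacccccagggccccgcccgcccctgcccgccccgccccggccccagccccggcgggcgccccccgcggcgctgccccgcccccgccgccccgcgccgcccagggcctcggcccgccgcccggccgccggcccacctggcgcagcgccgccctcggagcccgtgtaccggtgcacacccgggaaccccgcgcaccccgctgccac

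Wnt2b and Wnt5a were present in both tissues and higher in hippocampus. Wnt2b (chromosome 3, 104944805 to 104961709), a canonical ligand, was at 4.85, 4.76, 5.53, 5.09 and 3.97 RPKM in hippocampus labelled wild type and at 0.949, 1.04, 1.28, 0.817 and 0.999 in striatum labelled wild type. The groups were separate, and the ratio of means was 4.76 (log2 difference 1.53, SE 0.087; adjusted p = 1.77e-07). With the knockout label it was at 6.07, 3.72, 0.995, 8.23 and 3.35 RPKM in hippocampus and at 1.31, 1.31, 1.44, 1.04 and 0.808 in striatum. There the tissues overlapped, because replicate 8 in hippocampus fell among the striatal values, while replicate 9 was the highest of the 20 libraries. The difference in the labelled knockout was 1.16 (SE 0.33; adjusted p = 0.0228), and it was 1.48 (adjusted p = 0.000169) without replicate 8 of hippocampus. That call was lost without hippocampal replicate 5 (adjusted p = 0.0544), striatal replicate 9 (0.0508) or striatal replicate 10 (0.0533), without numbers 5 and 6 (0.0934), and with the replicate number as a block (0.128).

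Wnt5a (chromosome 14, 28504543 to 28527448), best known for signalling that does not need beta-catenin, was at 19.5, 14.3, 15.8, 15.2 and 16.6 RPKM in hippocampus labelled wild type and at 13.6, 16.0, 5.19, 16.0 and 13.8 in hippocampus labelled knockout. In striatum it was at 3.02, 3.64, 4.30, 6.22 and 2.87 RPKM and at 3.77, 2.52, 3.72, 3.66 and 3.23. Hippocampal replicate 8 was far below the other 9 and below the highest striatal value, that of replicate 4 labelled wild type; within each genotype label the tissues did not overlap. Hippocampal means were 4.07 times and 3.82 times the striatal ones, with differences of 1.82 (SE 0.15; adjusted p = 4.11e-06) and 1.59 (SE 0.25; adjusted p = 0.000658).

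Wnt7a and Wnt7b, close paralogs that support blood vessel growth and the blood-brain barrier through Reck and Adgra2, did not follow the other ligands. Wnt7a (chromosome 6, 91363981 to 91411353) was at 10.3, 11.9, 12.1, 11.7 and 10.9 RPKM in hippocampus labelled wild type and at 19.1, 19.9, 19.3, 24.9 and 16.3 in striatum labelled wild type. In the libraries labelled knockout it was at 10.1, 9.53, 11.1, 10.4 and 11.2 RPKM in hippocampus and at 20.6, 14.0, 17.5, 19.3 and 18.4 in striatum. All 10 striatal values lay above all 10 hippocampal ones. Striatal means were 1.74 times and 1.72 times the hippocampal ones (log2 difference of hippocampus from striatum -0.74, SE 0.091, adjusted p = 7.01e-05, and -0.72, SE 0.10, adjusted p = 0.000262). Its 5 hippocampal libraries labelled wild type had an SD of 0.762 RPKM around a mean of 11.4.

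Wnt7b (chromosome 15, 85535437 to 85581821) varied little in hippocampus and widely in striatum. In hippocampus it was at 20.5, 28.6, 26.4, 24.97 and 21.1 RPKM in the libraries labelled wild type and at 25.4, 22.3, 27.0, 20.3 and 23.3 in those labelled knockout. In striatum it was at 28.0, 20.9, 15.6, 7.21 and 37.0 RPKM and at 6.82, 48.1, 25.01, 14.6 and 21.3. The values of hippocampal replicate 8 and of striatal replicates 4 and 6 carry a decimal mark that could not be placed with certainty. The tissues overlapped, and striatal values ran both below and above the whole hippocampal range. Kept in the fit with those marks, hippocampus differed from striatum by 0.32 (95% interval -0.41 to 1.06) in the labelled wild type and by 0.27 (-0.57 to 1.12) in the labelled knockout, with adjusted p of 0.458 and 0.646, which does not show that the tissues have equal levels.

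With decimal marks as placed, the striatal spread of Wnt7b ran beside that of a marker sum in which Neurod6 and Tbr1 were the largest. Neurod6 alone reached 282 RPKM in striatum labelled wild type and 255 in striatum labelled knockout. The 5 hippocampal markers (Prox1, Zbtb20, Emx1, Neurod6 and Tbr1) summed to 371 RPKM in striatal replicate 5 labelled wild type and to 356 in replicate 7 labelled knockout, and to between 74.7 and 181 in the other 8 striatal libraries. The Wnt7b mark is unsure in striatal replicates 4 and 6. Among the other striatal libraries, Wnt7b was highest in replicates 5 and 7, at 37.0 and 48.1 RPKM. Rspo2, which has no unsure mark, was highest in replicates 5 and 7 as well, at 3.14 and 2.63 RPKM against 0.270 to 1.41 in the other 8. Wnt8b, Wnt3a and Rspo1 did not follow. In replicates 5 and 7 Wnt8b had 0 and 0 reads and Wnt3a 0 and 1. Rspo1 was at 0.113 and 0.0642 RPKM in them, in a striatal range of 0.0613 to 0.499. None of the 5 markers was at 0 throughout a striatal group, and all 5 have lower means in striatum except Tbr1, at 42.6 RPKM in striatum and 40.3 in hippocampus labelled wild type. With the knockout label Tbr1 was at 46.9 RPKM in striatum and 33.2 in hippocampus. The sum is thus not particular to hippocampus. Among these markers, Neurod6 had an unsure mark in striatal replicates 3 and 6 and Emx1 in replicate 4, so the sums of those libraries cannot be ranked against the others. The part of the marked cells in the values of Wnt7b and Rspo2 was not tested.

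**Figure D2:**
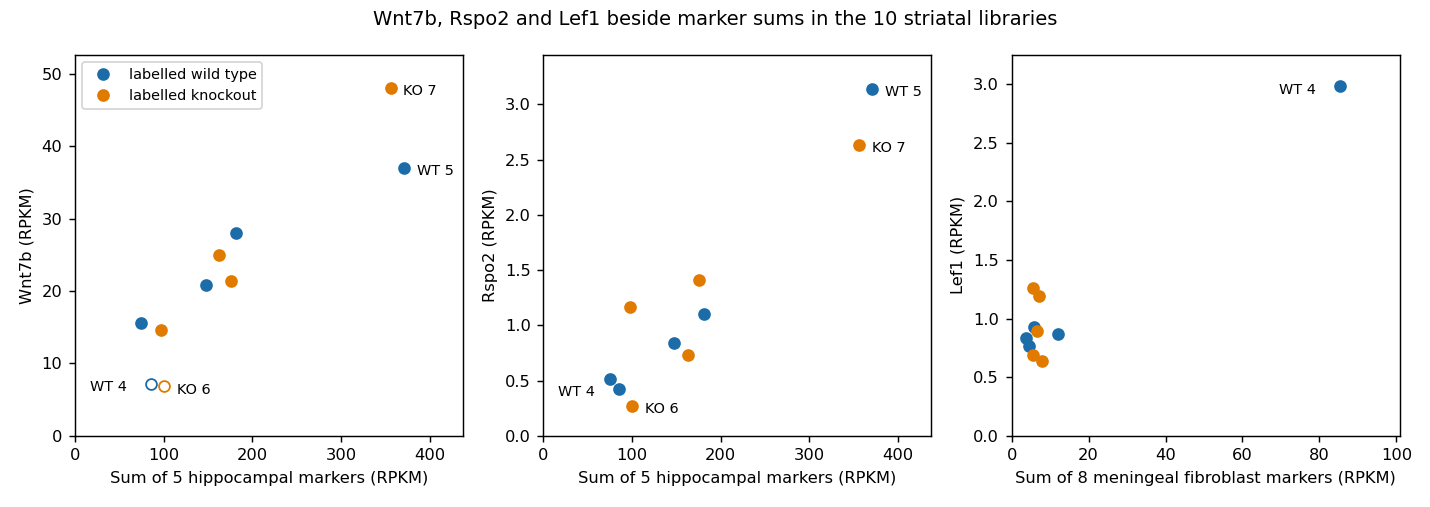
Level of Wnt7b and of Rspo2 against the summed RPKM of 5 hippocampal markers, and of Lef1 against that of 8 meningeal fibroblast markers, in the 10 striatal libraries, all axes linear in RPKM; open symbols have an unsure mark in the plotted gene. Replicates 5 (WT) and 7 (KO) lie at marker sums of 371 and 356 with the highest Rspo2, and with the highest Wnt7b among values with a sure mark. Replicate 4 (WT) lies apart at 85.5 with the highest Lef1. Neurod6 and Tbr1 had the highest means of the 5 markers in striatum with either label. Marker sums are drawn as placed, although Neurod6 is unsure in replicates 3 and 6, Emx1 in replicate 4 and Ogn, a meningeal marker, in every library.

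Together the ligands gave the tissues different Wnt mixtures. Over the 19 Wnt genes, Wnt7a and Wnt7b made up 78.1% ± 9.93 (SD, n = 5) of the summed RPKM in striatum labelled wild type and 49.3% ± 3.79 (SD, n = 5) in hippocampus. Wnt2b, Wnt3a, Wnt5a and Wnt8b made up 9.74% ± 3.16 in striatum and 40.2% ± 4.26 in hippocampus (SD, n = 5 each). In the libraries labelled knockout the shares of these 4 ligands were 9.59% ± 3.06 and 35.2% ± 12.2 (SD, n = 5 each), with 14.8% in the lowest hippocampal library. The ranges of the 4-ligand share in striatum and hippocampus, 6.27% to 13.6% and 34.7% to 46.6% with the wild type label, did not overlap. The striatal shares contain the unsure marks of Wnt7b. Of the 13 Wnt genes outside the 10 genes studied, 4 passed the filter; Wnt9a and Wnt4 were called higher in hippocampus and Wnt3 lower, in both genotype labels. Wnt4 had a striatal median under the filter with the wild type label, so it passed through hippocampus there and its call adds nothing. Wnt9a was at 2.19 ± 0.401 RPKM in hippocampus and 0.543 ± 0.0855 in striatum, Wnt3 at 0.924 ± 0.174 and 1.84 ± 0.0470 (labelled wild type, SD, n = 5 each).

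Rspo2 was more abundant than Rspo1. Rspo2 (chromosome 15, 43020788 to 43171594) was at 11.002, 10.5, 13.2, 12.3 and 8.56 RPKM in hippocampus labelled wild type and at 12.9, 10.4, 6.52, 16.3 and 10.2 in hippocampus labelled knockout. In striatum it was at 1.10, 0.838, 0.513, 0.427 and 3.14 RPKM and at 0.270, 2.63, 0.730, 1.17 and 1.41. The tissues did not overlap, although striatal values spread from 0.270 to 3.14. The ratio of means was 9.23 in the labelled wild type and 9.07 in the labelled knockout, with differences of 2.56 (SE 0.25; adjusted p = 1.3e-05) and 2.49 (SE 0.28; adjusted p = 6.05e-05).

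Rspo1 (chromosome 4, 124986401 to 125009102) was lower in level and more restricted. It was at 4.81, 3.29, 4.29, 3.47 and 3.65 RPKM in hippocampus labelled wild type and at 4.63, 3.68, 2.77, 5.85 and 4.90 in hippocampus labelled knockout. In striatum it was at 0.141, 0.277, 0.193, 0.499 and 0.113 RPKM and at 0.185, 0.0642, 0.199, 0.245 and 0.0613, on 3 to 27 reads. Every hippocampal value lay above every striatal one, and replicate 4 labelled wild type was the highest in striatum. Differences were 1.98 (SE 0.11; adjusted p = 1.32e-07) and 2.19 (SE 0.14; adjusted p = 1.07e-06). The third R-spondin measured above the filter, Rspo3, stood at 13.3 ± 1.48 RPKM in hippocampus and 0.996 ± 0.720 in striatum (labelled wild type, SD, n = 5 each; difference 2.90, adjusted p = 6.27e-07). Of the 7 R-spondin and receptor genes beyond Rspo1 and Rspo2, 4 were tested; 3 were called higher in hippocampus labelled wild type (Rspo3, Rnf43 and Znrf3) and 2 in the labelled knockout, none lower, while Lgr4 was not called (adjusted p = 0.0884). Rnf43 passed the filter only through hippocampus in both, and so had to differ.

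Lef1 and Axin2, the genes that read the pathway out, were also higher in hippocampus. Lef1 (chromosome 3, 131110297 to 131224357), a nuclear partner of beta-catenin, was at 7.86, 4.68, 5.60, 5.01 and 6.28 RPKM in hippocampus labelled wild type and at 0.929, 0.866, 0.763, 2.98 and 0.831 in striatum labelled wild type. The tissues did not overlap, but striatal replicate 4 stood far above the next library of its group, at 2.98 against 0.929 RPKM. In the labelled knockout Lef1 was at 5.40, 5.85, 3.07, 6.14 and 5.65 RPKM in hippocampus and at 0.688, 1.26, 0.892, 1.19 and 0.640 in striatum, again without overlap. The ratios of means were 4.62 and 5.59, and the differences 1.66 (SE 0.22; adjusted p = 0.000109) and 1.67 (SE 0.16; adjusted p = 1.94e-05). Striatal replicate 4 labelled wild type also had the highest sum of 8 meningeal fibroblast markers, 85.5 RPKM against 3.65 to 12.1 in the other 9 striatal libraries, and of 8 Cajal-Retzius cell markers, 118 against 28.0 to 47.5. The meningeal sums include Ogn, whose mark is unsure in every library. The part of such cells in the Lef1 value of replicate 4 was not tested.

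Axin2 (chromosome 11, 108917828 to 108950783), a scaffold of the complex that degrades beta-catenin and itself induced by the pathway, had the smallest difference of the 8 genes higher in hippocampus. It was at 18.6, 14.0, 16.2, 14.5 and 14.2 RPKM in hippocampus labelled wild type and at 5.80, 6.55, 8.23, 8.47 and 5.46 in striatum labelled wild type. In the labelled knockout it was at 14.96, 14.7, 7.60, 17.4 and 13.5 RPKM in hippocampus and at 7.32, 5.89, 6.96, 6.71 and 5.55 in striatum. The groups did not overlap within either genotype label, though hippocampal replicate 8 came close to the highest striatal value of its genotype. Hippocampal means were 2.25 times and 2.10 times the striatal ones, with differences of 1.07 (SE 0.12; adjusted p = 3.07e-05) and 0.93 (SE 0.18; adjusted p = 0.0024).

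Start regions of the response genes were searched for the letters CTTTGAA or CTTTGAT or CTTTGTA or CTTTGTT, forms of the TCF and LEF motif, on both strands with overlaps allowed; 14.8% of all 32851 windows of 250 bases hold at least 1. The tables matched 7 of the 10 genes, with 10 start sites, and 1 of these windows holds the motif, that of a Lef1 start within the gene body (chr3:131156044-131156293, plus strand, GRCm38.p6), at position -147 from the start on the minus strand. The window of the Axin2 start that was matched (chr11:108920099-108920348, plus strand) lies within the gene span given above, so the bases before that span were not searched. Neither this window nor that of the outermost Lef1 start (chr3:131110047-131110296, plus strand) holds the motif, which says only that these letters are not in these windows. Sequences are from RefSeq for GRCm38.p6, with the motif in capitals.
Axin2: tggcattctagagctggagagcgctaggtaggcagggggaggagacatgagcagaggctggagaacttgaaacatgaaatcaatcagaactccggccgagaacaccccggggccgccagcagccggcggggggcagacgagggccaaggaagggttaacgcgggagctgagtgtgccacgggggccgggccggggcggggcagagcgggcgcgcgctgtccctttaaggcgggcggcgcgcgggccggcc
Lef1 outermost start: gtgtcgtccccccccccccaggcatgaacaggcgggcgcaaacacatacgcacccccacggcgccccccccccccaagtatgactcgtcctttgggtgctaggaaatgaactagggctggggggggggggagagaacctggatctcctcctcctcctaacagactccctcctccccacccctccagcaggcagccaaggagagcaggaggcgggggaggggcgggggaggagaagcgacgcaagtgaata
Lef1 inner start: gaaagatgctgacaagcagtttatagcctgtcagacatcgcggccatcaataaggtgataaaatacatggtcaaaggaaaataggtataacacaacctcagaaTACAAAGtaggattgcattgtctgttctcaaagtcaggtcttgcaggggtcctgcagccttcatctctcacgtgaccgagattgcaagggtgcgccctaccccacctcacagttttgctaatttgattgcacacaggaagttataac

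**Figure D3:**
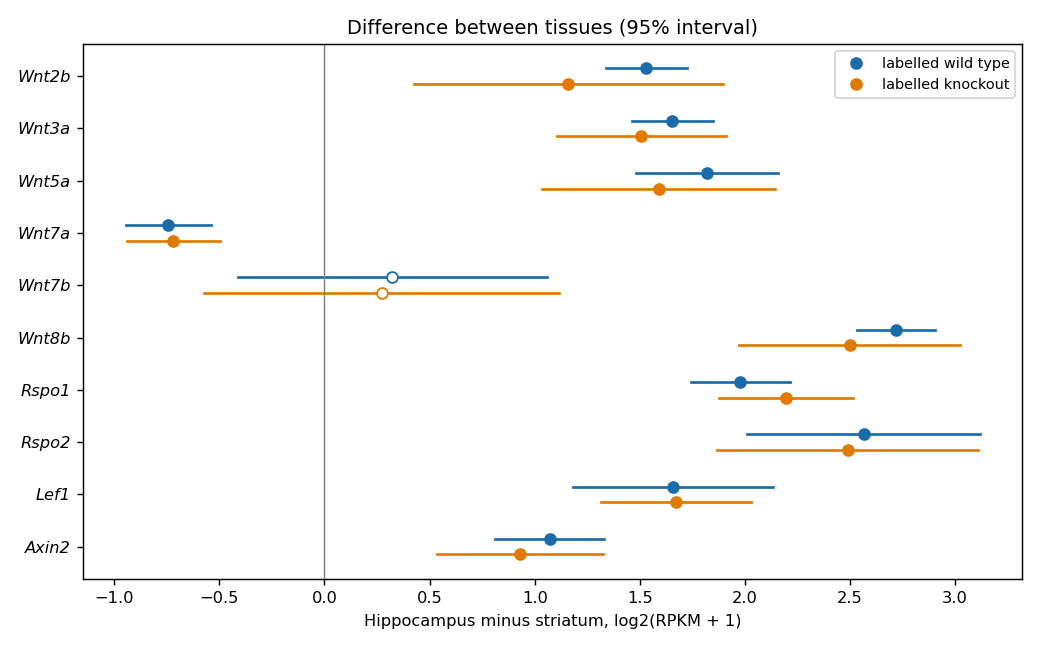
Difference of hippocampus from striatum in log2(RPKM + 1), with 95% intervals from limma, for the 10 genes in libraries labelled wild type (blue) and knockout (orange); Wnt7b, open, is shown with its unsure marks kept. Wnt7a lies left of 0 at -0.74 and -0.72, Wnt7b spans 0, and the other 8 lie right of it, from 0.93 (Axin2, labelled knockout) to 2.72 (Wnt8b, labelled wild type).

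Within hippocampus labelled wild type, the order of mean levels was Wnt7b (24.3 RPKM), Wnt5a (16.3), Axin2 (15.5), Wnt7a (11.4), Rspo2 (11.1), Lef1 (5.89), Wnt8b (5.71), Wnt2b (4.84), Rspo1 (3.904) and Wnt3a (2.19). Neighbours in that order overlapped between libraries for Wnt5a and Axin2, for Wnt7a and Rspo2, and along the run from Lef1 to Rspo1. In striatum labelled wild type, Wnt7b (21.7 RPKM) and Wnt7a (19.9) overlapped and led, followed by Axin2 (6.90), Wnt5a (4.01), Lef1 (1.27), Rspo2 (1.205), Wnt2b (1.02) and Rspo1 (0.245), with Wnt8b and Wnt3a at 0 to 4 reads. Wnt5a followed Wnt7b directly in hippocampus, and in striatum Wnt7a and Axin2 lay between them.

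Other genes of the pathway were counted by role, and the response genes Notum, Znrf3, Rnf43, Lgr5 and Tcf7 are counted under another role as well. Of all genes tested, 44.3% were called with the wild type label (23.3% higher, 20.9% lower). With the knockout label 28.9% were called (15.7% higher, 13.2% lower). Of 11 further response genes, 8 were tested in the labelled wild type and 7 were called higher in hippocampus, none lower; in the labelled knockout 9 of 10 tested were called higher, none lower. Sp5, a transcription factor induced by Wnt signals, was at 3.36 ± 0.557 RPKM in hippocampus and 0.741 ± 0.457 in striatum, and Notum, which removes the lipid from Wnt, at 1.48 ± 0.279 and 0.720 ± 0.1899 (labelled wild type, SD, n = 5 each). Of 17 receptor and co-receptor genes, 16 were tested, with 7 called higher and 2 lower in the labelled wild type and 6 and 2 in the labelled knockout. Fzd1 was higher in hippocampus by 1.92 and Fzd9 by 1.52 on the log2 scale. Fzd10 and Fzd5 (2 of the 9 receptor calls), Sfrp5 and Wif1 (2 of the 9 inhibitor calls) and Rnf43, which is also 1 of the 7 response gene calls, had a median under the 0.5 RPKM of the filter in 1 tissue with the wild type label. They passed through the other tissue, so their calls add nothing to these counts. With the knockout label the same held for Sp5 and Rnf43 among the response genes, Fzd5 and Fzd10 among the receptors, and Sfrp4, Sfrp5 and Wif1 among the inhibitors. Of 15 secreted inhibitors, 10 were tested in the labelled wild type, 6 called higher and 3 lower: Draxin stood at 95.4 ± 6.97 RPKM against 32.8 ± 6.19, and Sfrp5, which passed only through striatum, at 0.118 ± 0.112 against 4.05 ± 1.38. With the wild type label, the 11 genes of the destruction complex and Dishevelled family gave 2 higher and 2 lower, and the TCF factors and co-activators 1 and 1 of 6 tested. The median difference over these lists together was 0.23 in the labelled wild type, beside 0.01 over all genes tested.

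The comparison of genotypes asked whether these genes changed with loss of Helios. Within each tissue none of them passed the test between labelled genotypes, and neither did any other gene: limma called 0 of 14511 genes (0%) in striatum and 0 of 14382 (0%) in hippocampus. At an unadjusted p below 0.05 there were 592 genes (4.08%) and 649 genes (4.51%), with 0 of the studied genes tested among them. The targeted gene, Ikzf2, was itself not called by limma in striatum (adjusted p = 0.0872), although its ranges did not overlap there. voom called 1 gene, Ikzf2 (adjusted p = 0.0353), in striatum and 0 in hippocampus, where Ikzf2 had an adjusted p of 0.772. Since limma did not call the targeted gene, 0 calls does not show that the 10 genes were unchanged. Every one of the 10 genes had overlapping ranges between genotype labels in both tissues, where 0.799% of tested genes in striatum (0.469% lower with the knockout label) and 2.46% in hippocampus (1.7% lower) did not overlap. In the authors' deposited table the smallest p for a transcript of these genes was 0.207 in striatum and 0.185 in hippocampus, with log2 fold changes from -0.13 to 0.14 and from -0.20 to 0.12. That table lists Ikzf2 at -1.15 (SE 0.119) in striatum and -1.07 (SE 0.137) in hippocampus. Here the hippocampal log2 ratio of Ikzf2 means was -0.83 as labelled. It was -1.24 with the hippocampal labels that Ikzf2 went against exchanged. Whether the authors grouped the hippocampal libraries by the labels used here was not tested, so their hippocampal p may rest on other groups. In the authors' deposited table the 3 Lef1 transcripts are listed with a base mean of 0 in hippocampus, and 2 of the 3 in striatum, whereas in hippocampus the RPKM values rest on 134 to 576 reads of the gene.

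In hippocampus the ligands, as labelled, gave negative differences that did not pass the test. Wnt5a had the largest, -0.39 (95% interval -0.95 to 0.16; adjusted p = 0.713), at 12.9 ± 4.47 RPKM in the labelled knockout and 16.3 ± 1.97 in the labelled wild type (SD, n = 5 each), and it was -0.12 without replicate 8 labelled knockout. Wnt2b was at -0.26 (-1.01 to 0.48), Wnt8b at -0.24 (-0.79 to 0.32), Wnt3a at -0.14 (-0.58 to 0.30) and Wnt7a at -0.11 (-0.26 to 0.04). Rspo1 was at 0.11 (-0.24 to 0.46) and Rspo2 at -0.02 (-0.46 to 0.42). Axin2 was at -0.21 (-0.61 to 0.19) and Lef1 at -0.16 (-0.53 to 0.22). Of the 9 genes tested, 8 were negative, with a median of -0.16 beside -0.01 over all genes tested. The intervals leave room for changes in either direction, and the narrowest, that of Wnt7a, reaches from -0.26 to 0.04. For Wnt7b, kept with its unsure marks, the difference was -0.03 (-0.27 to 0.21).

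Replicate 8 labelled knockout had the lowest hippocampal level of most of these genes. Of the 10 genes, 8 had their lowest hippocampal value there, beside 51.6% of the 3948 genes of 2500 to 4500 bases, a range that holds all of the 10 genes but Rspo1 (1834) and Lef1 (2460). Rspo1 and Lef1 are among the 8, so the count and the share do not cover genes of the same lengths. Relative to the median of the other 9 hippocampal libraries, Wnt2b was at 20.5%, Wnt8b at 31.0%, Wnt5a at 32.8% and Wnt3a at 34.7% in that library. Axin2 was at 51.6%, Lef1 at 54.4%, Rspo2 at 59.3% and Rspo1 at 64.5%, while Wnt7a was at 102% and Wnt7b at 115%. On the log2 scale the genes of that length had a median difference of -0.16 there, with quartiles of -0.45 and 0.11, and Wnt2b was at -1.55. Without replicate 8, Wnt2b differed between genotype labels by 0.0574, Wnt3a by 0.0338, Wnt8b by 0.00856 and Rspo2 by 0.14, each opposite in sign to its value with replicate 8; Axin2 was then at -0.0292 and Lef1 at -0.0095. Marker sums of other kinds also stood apart in that library. Those of endothelium (153.8 RPKM against 117.8 to 135.2 in the other 9), ependyma (33.1 against 14.7 to 31.8) and oligodendrocyte precursors (58.6 against 34.9 to 53.4) were the highest of the 10. That of progenitors was the lowest (126.7 against 133.5 to 190.6). Meningeal fibroblast markers stood at 78.5 against 26.4 to 57.8 and choroid plexus markers at 158.5 against 38.3 to 384.2. Hippocampal markers stood at 316 against 341 to 491 and Cajal-Retzius markers at 116 against 143 to 208. These last sums cannot be ranked there, because Ogn, Ttr, Prox1 and Ndnf carry an unsure mark in that library. The part of these cells in the low values was not tested.

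**Figure D4:**
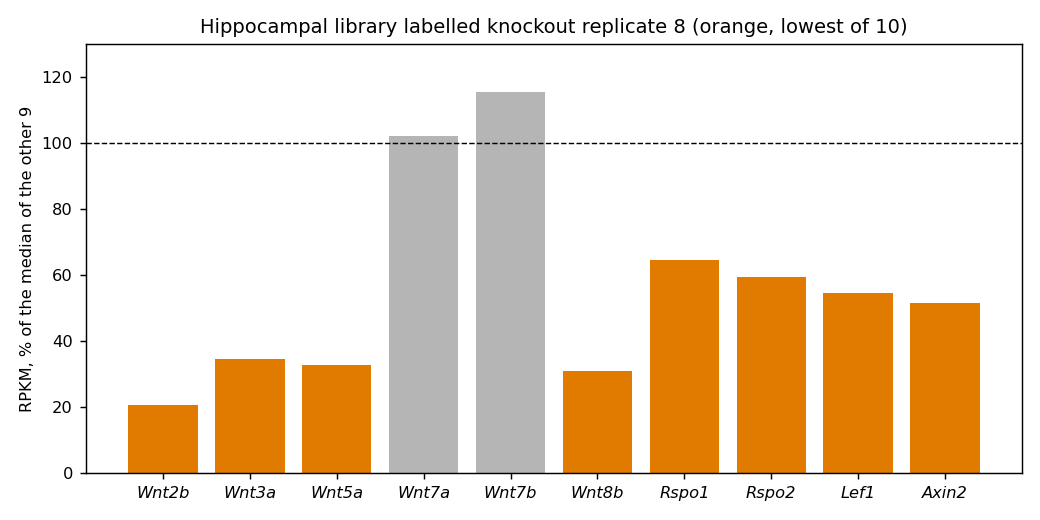
Level of each of the 10 genes in the hippocampal library labelled knockout replicate 8, in percent of its median in the other 9 hippocampal libraries (bars from 0; dashed line, 100%). Bars in orange are the 8 genes lowest in this library of all 10; Wnt2b stands at 20.5%, Wnt7a at 102% and Wnt7b, with an unsure mark here, at 115%.

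Leaving out numbers 5 and 6, whose Ikzf2 levels went against their hippocampal labels, did not bring any of the 10 genes past the test. Ikzf2 was then at 0.576 ± 0.178 RPKM in the labelled knockout and 1.46 ± 0.155 in the labelled wild type (SD, n = 4 each), with no overlap. limma still did not call it (adjusted p = 0.691). Wnt5a was at 12.7 ± 5.15 and 16.2 ± 2.27 RPKM and Axin2 at 13.3 ± 4.12 and 15.8 ± 2.06 (SD, n = 4 each). With the genotypes of these numbers exchanged, Wnt2b was at 4.05 ± 2.62 and 5.26 ± 0.543 RPKM, Wnt8b at 4.71 ± 2.03 and 6.03 ± 0.663, and Lef1 at 5.40 ± 1.32 and 5.71 ± 1.25 (SD, n = 5 each). With numbers 5, 6 and 8 left out, a choice made after the data were seen, Lef1 was at 5.88 ± 0.251 RPKM (n = 3) and 5.79 ± 1.43 (n = 4) and Axin2 at 15.2 ± 1.96 and 15.8 ± 2.06. All 10 genes overlapped between labels under each of these choices.

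In striatum 6 of the 10 genes passed the filter without an unsure mark. Wnt5a differed by -0.16 (95% interval -0.52 to 0.19), Wnt7a by -0.14 (-0.39 to 0.11), Wnt2b by 0.11 (-0.10 to 0.32) and Rspo2 by 0.05 (-0.65 to 0.76). Lef1 differed by -0.17 (-0.63 to 0.30) and Axin2 by -0.07 (-0.33 to 0.19). Adjusted p was 0.985 to 0.995 for these 6 genes. Without replicate 4 labelled wild type, the library with raised Lef1, the Lef1 difference was 0.0552. Wnt3a, Wnt8b and Rspo1 stayed under the filter in striatum, at 0 to 27 reads in every library. Among the pathway lists, none of the 55 genes tested in striatum and none of the 57 tested in hippocampus was called between genotype labels. Those with the smallest p were Porcn (-0.16), Fzd2 (-0.34) and Fzd6 (-0.18) in striatum and Lrp5 (-0.28), Notum (0.23) and Fzd2 (-0.19) in hippocampus, on the log2 scale.

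**Figure D5:**
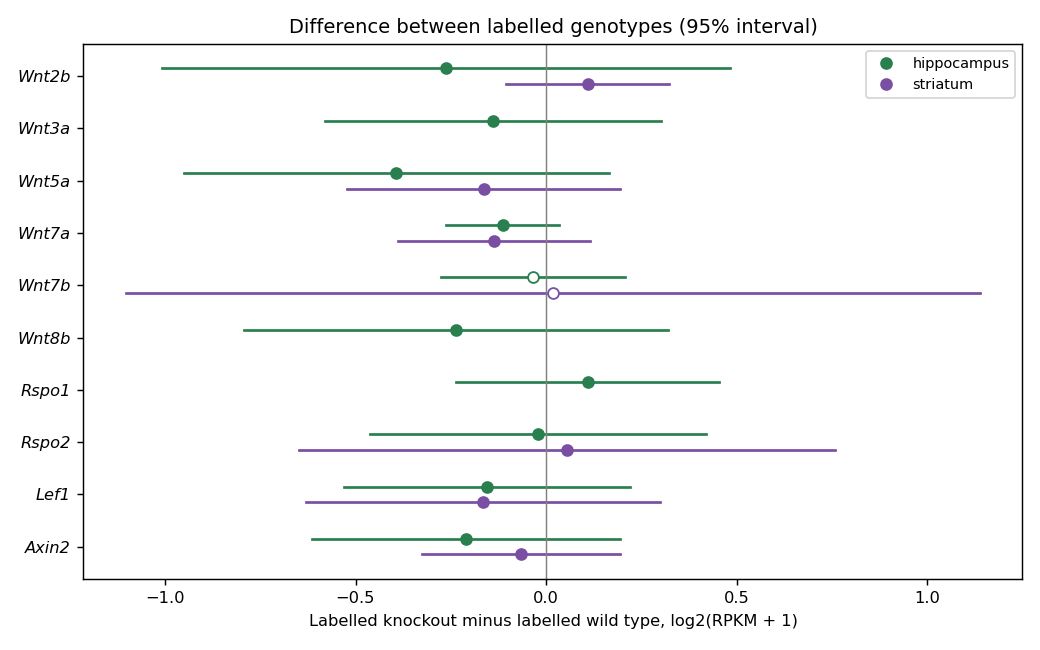
Difference of the labelled knockout from the labelled wild type in log2(RPKM + 1), with 95% intervals from limma, in hippocampus (green) and striatum (purple); genes under the filter in striatum have no purple point, and Wnt7b, open, is shown with its unsure marks kept. Every interval spans 0, from the narrow one of Wnt7a in hippocampus (-0.26 to 0.04) to that of Wnt7b in striatum (-1.10 to 1.14).

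A genotype difference that itself differed between tissues was tested over all 20 libraries. None of 14678 genes was called (0%), and 508 (3.46%) had an unadjusted p below 0.05, of which 0 were among the 10 genes. The interaction was largest in size for Wnt2b, at -0.37 (95% interval -1.13 to 0.39; adjusted p = 0.797; -0.0518 without hippocampal replicate 8 and -0.60 without hippocampal replicate 9), followed by Wnt5a at -0.23 (-0.88 to 0.42) and Wnt8b at -0.22 (-0.78 to 0.33). For Lef1 it was 0.01 (-0.58 to 0.61) and for Wnt7a 0.02 (-0.27 to 0.31). This fit took the hippocampal labels of numbers 5 and 6 as given, although Ikzf2 went against them. Without these numbers, and with their hippocampal labels exchanged, 0 genes were called. The tissue difference of these genes therefore could not be shown to depend on the genotype label.

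The genes with the pattern most like 4 of the members were found by Pearson correlation of log2(RPKM + 1) over the 10 hippocampal libraries, which share the depth and composition of each library, replicate 8 included. For Lef1 they were Neurod1 (r = 0.989), Pcdh20 (0.983), Tll1 (0.977), Tnfrsf19 (0.977) and Stat3 (0.974). For Axin2 they were Rassf4 (0.993), Nln (0.982), Tex261 (0.978), Apcdd1 (0.975) and Pard3b (0.972). For Wnt8b they were Nxpe4 (0.981), Wnt2b (0.981), Zdhhc15 (0.979), Frem2 (0.978) and Rab31 (0.972). For Wnt3a they were Wnt8b (0.952), Fzd10 (0.951), Rab31 (0.950), Wnt2b (0.946) and Rspo3 (0.946). Without replicate 8, over 9 libraries, Neurod1 (0.971) and Pcdh20 (0.964) still led for Lef1, Rassf4 (0.962) for Axin2, and Wnt2b (0.931) came second for Wnt8b after Kcnk6 (0.935). The nearest 5 for Wnt3a were then all other genes, led by Tmem141 (0.940), with Lmx1a (0.912) the last of the 5, a gene of the cortical hem in the mouse embryo.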

How the data were processed

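The submitters' processing notes name featureCounts, HTSeq, DESeq2, BWA 0.7.4, SAMtools, cutadapt 1.3, FastQC 0.11, CASAVA 1.8.2, bcl2fastq 2.15.0 and the build mm10; roles and order are not given in the sources used here. Libraries were stranded and read as 75 bp single reads, per the labels' protocols. The authors deposited RPKM values for 27179 genes, and a table per tissue of the authors' genotype comparison (log2 fold changes, standard errors, p-values). The decimal mark of values of 1 or more (51.1% of RPKM values) was missing. Places kept were those giving whole reads (within 0.001) for 1 gene length over all libraries and, among these, the place nearest to the annotated length and the gene's other values, so restored values lean toward their tissue. This gave 27178 genes. Genes with an unsure mark, 528 for striatum and 770 for hippocampus, were not tested.

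Symbols and positions came from RefSeq (GRCm38.p6) and gene lengths from GENCODE. limma 3.58.1 (trend, robust) in R 4.3.3 was run on log2(RPKM + 1) for genes reaching 0.5 RPKM in 5 or more of the libraries compared. Leaving out libraries kept the same tested genes. Groups came from the titles; the hippocampal library labelled knockout replicate 10 carries the tissue tag striatum. All libraries whose code starts with 6 have the wild type label and all whose code starts with 8 the knockout label, so genotype and that number cannot be told apart; codes starting with 7 are numbers 5 and 6, with 1 library per genotype label in each tissue. None of 40 pairs of libraries within a group agreed within counting noise. Alternatives were a pseudocount of 0.1, no filter, quantile normalization, voom on recovered reads, unsure marks kept, each library left out, numbers 5 and 6 left out or exchanged, and a replicate block. The genes and lists were chosen with earlier results of these data known. The other genes named were up to 4 per list with the smallest p between tissues in the labelled wild type, those with the smallest p between genotype labels (named only where described), and the nearest 5 by correlation.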

Additional observations from a re-analysis of the deposited data

Results flagged for a closer look

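In each of the 40 sets of 5 libraries formed by the 10 genes and 4 groups, the gap of the highest or lowest library to its neighbour was compared with the range of the group, and 7 sets had a gap beyond Dixon's 95% limit. Chance gives about 1 such set in 20 where sets are independent and values normally spread. Sets with few reads, and libraries that recur across genes, do not meet this, so that rate does not hold for these 40 sets.

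Hippocampus labelled knockout replicate 8 was far below its group for Wnt5a, at 5.19 RPKM against 13.6 to 16.0, and for Lef1, at 3.07 RPKM against 5.40 to 6.14. In striatum labelled wild type, replicate 4 was far above its group for Lef1, at 2.98 RPKM against 0.763 to 0.929, and replicate 5 for Rspo2, at 3.14 RPKM against 0.427 to 1.10. The other 3 rest on few reads: Wnt3a in striatum labelled wild type replicate 4 (0.0369 RPKM, 3 reads), Wnt8b in striatum labelled wild type replicate 1 (0.0437 RPKM, 4 reads) and Wnt8b in striatum labelled knockout replicate 6 (0.0111 RPKM, 1 read).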

How the results depend on the processing

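Between tissues, the 9 tested genes kept their direction under all alternatives, and all stayed called except Wnt2b in the labelled knockout. The number of all genes called in the labelled knockout was 4153, with 2368 under the replicate block and 3382 to 6254 with each library left out, the highest without hippocampal replicate 8. Between genotype labels, 0 genes were called in striatum, with 1 by voom and 1 with unsure marks kept, and 0 in hippocampus, with 2 when the labels of numbers 5 and 6 were exchanged; none was among the 10 genes. Whether a number pairs the tissues was not settled. Library codes are the same in both tissues, Xist was above or below 1 RPKM in both tissues alike for 10 of 10 numbers (below for 3), and 9 of 10 pairs had correlated deviations over 0.1 (4 of 4 with the wild type label in both tissues). The pair of number 8 was at -0.191, 2 of 10 hippocampal libraries were best matched by their own number, and the labels do not say that a number names an animal. Under the replicate block 4859 genes were called in the labelled wild type against 6543, 8 of the 9 genes studied were called in the labelled knockout, and the interaction again had 0 calls; the Wnt2b difference in the labelled knockout was 1.046. No paired analysis was possible between genotypes because wild type and knockout share no numbers within a tissue.

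Uncalled genotype differences near 0 changed sign. In hippocampus Rspo2 (-0.02) was 0.0228 with quantile normalization, 0.0102 with voom and 0.0366 without numbers 5, 6 and 8, Lef1 was 0.0411 without numbers 5, 6 and 8, and Rspo1 was -0.000612 with labels exchanged. The Wnt8b interaction was 0.48 with voom. With each library left out, hippocampal differences ran from -0.50 to 0.0574 for Wnt2b, -0.28 to 0.0338 for Wnt3a, -0.39 to 0.00856 for Wnt8b and -0.16 to 0.14 for Rspo2, and striatal ones from -0.13 to 0.0036 for Axin2, -0.24 to 0.0552 for Lef1 and -0.14 to 0.31 for Rspo2. Interactions ran from -0.24 to 0.0370 for Axin2, -0.21 to 0.16 for Lef1, -0.33 to 0.12 for Rspo2, -0.28 to 0.0278 for Wnt3a, -0.37 to 0.0411 for Wnt5a, -0.0579 to 0.0881 for Wnt7a and -0.37 to 0.0233 for Wnt8b. The cause was not tested. Wnt3a, Wnt8b and Rspo1 in striatum are limited by depth, at 0 to 27 reads.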
